A study of Mus musculus with 17 samples.

Results

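*Dapl1*, *C1qtnf1*, *Prss23*, *Gm2115* and *Gm34225* are 5 of the 78239 gene rows measured by bulk RNA-seq in isolated islets of *Pax4* R192H mice and 5 of the 73212 rows measured in inducible β cell *Pax4* knockout mice. They were picked for large increases in HFD-fed *Pax4* R192H islets or in both *Pax4* models, so their values in those comparisons are given as a description and carry no test. The islets of male mice gave 17 libraries in 6 groups. Each library is labelled a biological replicate and is taken here as a single mouse. The sources do not say whether islets were pooled for bulk RNA-seq. In the knock-in table, 3 wildtype mice (*Pax4* WT) and 3 homozygous *Pax4* R192H mice (*Pax4* HH) were taken at 12 weeks of age on a standard chow diet (SCD), and 3 of each genotype were taken at 16 weeks after 4 weeks on a high-fat diet (HFD). In the knockout table, 2 control and 3 *Pax4* βiKO mice were taken at 20 weeks after 8 weeks on HFD. All of the latter 5 mice carried floxed *Pax4* alleles and received tamoxifen between 7 and 9 weeks of age, and the βiKO mice also carried *Pdx1-CreERT2*, a tamoxifen-activated recombinase driven by a promoter that is active in β cells and some other islet cells. The controls had no Cre, so Cre itself and the loss of *Pax4* cannot be told apart. Age differed with diet in the knock-in table, so the 2 cannot be told apart there.

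PAX4 is a paired-box and homeodomain transcription factor that is required for β cells to form in the embryo and that acts mostly as a repressor. Islets adapt to a high-fat diet by making and secreting more insulin, which loads the secretory pathway of the β cell. The 5 genes have no single pathway in common. *Dapl1* encodes a small protein related to DAP, and proteins of this kind are known from dormant ribosomes. *C1qtnf1* encodes CTRP1, a secreted protein of the C1q and TNF-related family. *Prss23* encodes a secreted serine protease. *Gm2115*, which RefSeq also lists as *Ctxnd1*, is annotated as protein-coding, and *Gm34225* is a long non-coding RNA.

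On GRCm38 (mm10), *Dapl1* (ENSMUSG00000026989) lies on the plus strand at chr2:59484653-59505020 and *C1qtnf1* (ENSMUSG00000017446) on the plus strand at chr11:118428203-118449963. The other 3 are on chromosome 7, with *Gm2115* (ENSMUSG00000097789) at chr7:84528954-84583531 on the plus strand, *Prss23* (ENSMUSG00000039405) at chr7:89507783-89527187 on the minus strand and *Gm34225* (ENSMUSG00000108722) at chr7:115031937-115066824 on the plus strand. The exons of *Dapl1* and *Gm34225* cover 679 and 803 bases, and those of *C1qtnf1*, *Prss23* and *Gm2115* cover 3131, 3767 and 7340 bases.

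The 250 bases before the RefSeq start sites are shown because the genes were high in the same islets and because homeodomain proteins bind a TAAT core. The sequences are from a set of RefSeq promoters on GRCm38.p6, which held windows for 4 of the 5 genes. *C1qtnf1* is annotated in RefSeq but had no window in that set. They read 5′ to 3′ on the strand of the gene. Capitals mark TAAT on either strand, which reads ATTA on the other, and TATAAA, the TATA box. Where RefSeq gives several starts, the one nearest the GENCODE start is shown. The windows are chr2:59484403-59484652 for *Dapl1*, chr7:89527188-89527437 for *Prss23*, chr7:84528724-84528973 for *Gm2115* and chr7:115014524-115014773 for *Gm34225*.
Dapl1: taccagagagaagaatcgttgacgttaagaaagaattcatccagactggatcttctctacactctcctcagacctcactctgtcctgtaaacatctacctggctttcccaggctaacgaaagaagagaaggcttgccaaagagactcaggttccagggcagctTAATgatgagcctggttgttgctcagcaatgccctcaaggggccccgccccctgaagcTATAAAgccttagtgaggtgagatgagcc
Prss23: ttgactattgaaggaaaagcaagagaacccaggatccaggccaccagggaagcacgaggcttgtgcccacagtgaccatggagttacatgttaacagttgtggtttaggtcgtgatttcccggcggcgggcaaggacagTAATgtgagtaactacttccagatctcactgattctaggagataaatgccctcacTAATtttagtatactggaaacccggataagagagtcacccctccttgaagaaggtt
Gm2115: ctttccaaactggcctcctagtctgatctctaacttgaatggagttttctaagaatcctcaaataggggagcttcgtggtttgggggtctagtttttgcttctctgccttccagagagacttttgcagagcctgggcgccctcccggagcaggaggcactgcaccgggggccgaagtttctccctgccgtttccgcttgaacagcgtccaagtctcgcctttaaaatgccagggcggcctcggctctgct
Gm34225: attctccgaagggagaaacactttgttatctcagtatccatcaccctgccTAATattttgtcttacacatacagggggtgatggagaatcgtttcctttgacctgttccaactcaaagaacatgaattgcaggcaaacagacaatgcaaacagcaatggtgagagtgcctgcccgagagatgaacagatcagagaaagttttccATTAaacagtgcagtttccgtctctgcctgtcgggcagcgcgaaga

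The *Dapl1* window held 1 TAAT and 1 TATAAA, whose first base was 29 bases before the start. The *Prss23* window held 2 TAAT and the *Gm34225* window held 2, whereas the *Gm2115* window held none. Of all 32851 RefSeq mouse promoter windows of this length, 54.9% held TAAT and 12.4% held TATAAA on either strand. A match of letters is a description and not a site. *Prss23* has 7 RefSeq starts, which counts per gene do not tell apart, and the window shown held the most TAAT of them, since 3 others held 1 and 3 held none. The other start of *Gm34225* had 3 in its window. The nearest RefSeq start of *Gm34225* was 17163 bases from its GENCODE start.

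The libraries of the knock-in table held between 24268157 and 42679645 counts and those of the knockout table between 28618835 and 31887537. Levels are given as CPM, the count of a gene relative to the library total after scaling by TMM, and the tables were scaled separately, so a level in one is not directly comparable with a level in the other. A pair of unnamed rows took between 36.2% and 53.3% of the counts in the knock-in table and between 5.40% and 6.49% in the knockout table. None of the 17 libraries held a count of *Pax4* itself, which therefore checks no label, and 3 counts corresponded to between 0.0724 and 0.126 CPM. Defining β cell markers were detected in every library. The TMM factors were between 0.692 and 0.823 for the 3 *Pax4* R192H mice on HFD and from 0.89 to 1.3 in the other 9 mice of that table, so the scaling raised the levels of the former. Without this scaling *Dapl1* averaged 83.9 CPM with the R192H allele and 13.6 CPM in wildtype islets on HFD, and the other 4 genes also averaged higher with that allele.

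*Dapl1* was low in all SCD islets and high in those of HFD-fed *Pax4* R192H mice. On SCD it was at 7.28, 5.74 and 5.09 CPM in wildtype mice and at 4.45, 6.32 and 8.09 CPM in *Pax4* R192H mice. On HFD it was at 10.5, 19.7 and 13.0 CPM in wildtype mice and at 111, 117 and 114 CPM in *Pax4* R192H mice. The 3 HFD-fed *Pax4* R192H mice lay close together, and the lowest of them was 5.63 times the highest HFD-fed wildtype mouse. The log2 fold change between genotypes on HFD was 2.99 (SE 0.24), the third largest increase among the 280 genes called higher. Control islets of the knockout table held *Dapl1* at 61.8 and 88.8 CPM, and βiKO islets held it at 213, 163 and 169 CPM, a log2 fold change of 1.27 (SE 0.18). The groups did not overlap in either model. Per kilobase of exon, *Dapl1* was the most abundant of the 5 genes in every group and reached 168 ± 4.81 CPM per kilobase (SD, n = 3) in *Pax4* R192H mice on HFD.

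*C1qtnf1*, the gene of the secreted protein CTRP1, stood at or below 2.15 CPM in every mouse outside the HFD-fed *Pax4* R192H and βiKO groups. On SCD it was at 1.21, 0.724 and 0.531 CPM in wildtype mice and at 1.02, 0.526 and 0.84 CPM in *Pax4* R192H mice. On HFD it was at 0.986, 2.15 and 1.2 CPM in wildtype mice and at 12.0, 14.0 and 9.22 CPM in *Pax4* R192H mice. All 3 of the latter were above every other mouse of the table, and the log2 fold change between genotypes on HFD was 3.03 (SE 0.36). Control mice of the knockout table were at 1.338 and 1.359 CPM and *Pax4* βiKO mice at 6.45, 3.75 and 4.11 CPM, without overlap and with a log2 fold change of 1.82 (SE 0.31). These levels rest on few reads, between 20 and 63 counts in each mouse of the 3 low groups of the knock-in table.

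*Prss23*, the secreted serine protease, had the smallest difference between genotypes on HFD of the 5 genes. On SCD it was at 8.76, 18.7 and 10.3 CPM in wildtype mice and at 9.20, 9.98 and 8.97 CPM in *Pax4* R192H mice. On HFD it was at 7.54, 14.1 and 10.7 CPM in wildtype mice and at 27.0, 34.5 and 27.1 CPM in *Pax4* R192H mice. A single wildtype mouse on SCD lay above the other mice of that diet, and the HFD-fed *Pax4* R192H mice lay above all others. The log2 fold change between genotypes on HFD was 1.46 (SE 0.27). *Prss23* in the knockout table was at 18.4 and 15.1 CPM in control mice and at 36.5, 41.9 and 42.4 CPM in *Pax4* βiKO mice, with a log2 fold change of 1.27 (SE 0.13). An antisense gene, *Prss23os*, shares 864 exonic bases with *Prss23* on the opposite strand. It held at most 47 counts in a mouse of the knock-in table, and the strand setting of the counting is not given in the sources used here.

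*Gm2115* was at 1.31, 1.69 and 1.91 CPM in wildtype and at 1.45, 1.53 and 2.75 CPM in *Pax4* R192H mice on SCD. On HFD it was at 1.41, 3.28 and 1.46 CPM in wildtype mice and at 16.4, 16.7 and 8.36 CPM in *Pax4* R192H mice. The third *Pax4* R192H mouse lay well under the other two and still above every wildtype mouse, and the log2 fold change was 2.76 (SE 0.38). Control mice of the knockout table were at 4.98 and 4.21 CPM and *Pax4* βiKO mice at 20.3, 18.1 and 14.2 CPM, with a log2 fold change of 1.93 (SE 0.19), the largest of the 5 genes in that model.

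*Gm34225*, the long non-coding RNA, was at 0.91, 1.21 and 1.06 CPM in wildtype and at 1.07, 1.90 and 2.37 CPM in *Pax4* R192H mice on SCD. On HFD it was at 1.60, 1.71 and 1.67 CPM in wildtype mice and at 6.87, 8.22 and 5.34 CPM in *Pax4* R192H mice. The wildtype mice on HFD lay close together, all 3 *Pax4* R192H mice lay above them, and the log2 fold change was 2.04 (SE 0.29). It was at 9.999 and 9.746 CPM in control mice of the knockout table and at 21.5, 19.9 and 20.4 CPM in *Pax4* βiKO mice, with a log2 fold change of 1.06 (SE 0.11).

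**Figure D1:**
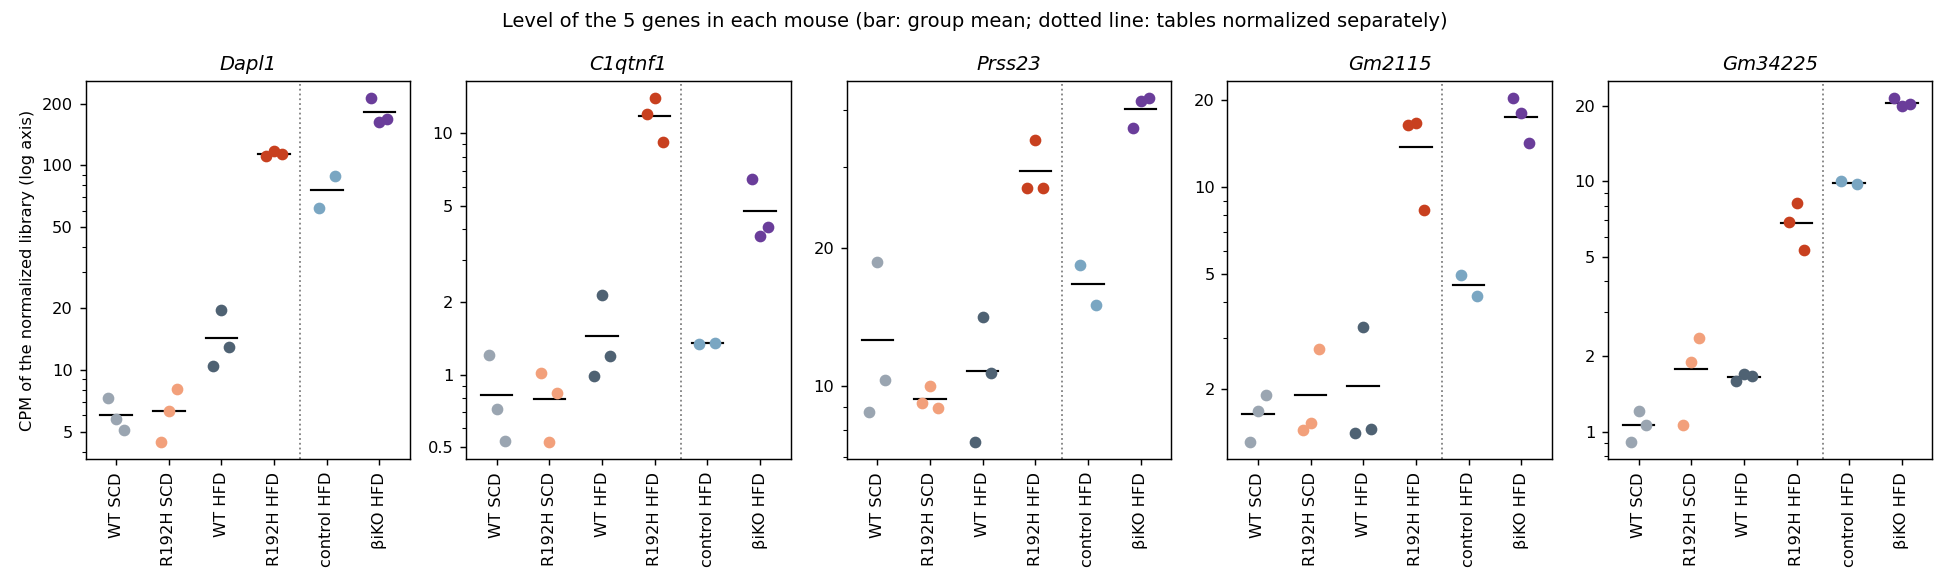
CPM of the normalized library (log axis) in each of 17 mice, with 1 panel per gene, 1 point per mouse and a bar at each group mean. In every panel the 3 HFD-fed *Pax4* R192H mice lie above the 9 other mice of their table and the 3 *Pax4* βiKO mice lie above the 2 controls.

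Whether the genes already differed before the diet was asked in SCD-fed mice, a comparison that the choice of genes did not use. None of the 5 was called by edgeR's quasi-likelihood test, nor was any of the 19137 genes tested (0%), with 629 genes at an unadjusted p under 0.05 and 18 genes called by DESeq2. The log2 fold change of *Dapl1* was 0.05 (95% interval -0.47 to 0.58) and that of *C1qtnf1* was -0.03 (95% interval -0.86 to 0.80). Those of *Prss23* and *Gm2115* were -0.42 (95% interval -0.996 to 0.15) and 0.20 (95% interval -0.63 to 1.02). *Gm34225* had the largest value, 0.73 (95% interval 0.09 to 1.37), with an unadjusted p of 0.0274 and an edgeR adjusted p of 1. The edgeR adjusted p was 1 for the other 4 genes too. All 5 genes overlapped between genotypes on SCD, where 7.83% of tested genes did not.

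On HFD all 5 genes were called higher in *Pax4* R192H than in wildtype islets, where 1.46% of tested genes were, and the choice of genes fixes that count. They took places 2, 3, 6, 24 and 80 by log2 fold change among the 280 genes called higher, *C1qtnf1* being second and *Prss23* being at place 80. All 5 were also without overlap, as were 13.0% of tested genes in that direction. With the acinar marker covariate described later none of the 5 was called there, and *Prss23* was also not called without the first or the third wildtype mouse or the second *Pax4* R192H mouse. In the knockout table edgeR called *Prss23*, *Gm2115* and *Gm34225* higher, where 0.0595% of tested genes were, and did not call *Dapl1* or *C1qtnf1*. The choice of genes used this comparison too, so these calls are a description and nothing is read from the count. DESeq2 called all 5, and so did edgeR with no filter or with the replicate number as a block. None of the 5 was called without either control mouse or without the second *Pax4* βiKO mouse, and without the first *Pax4* βiKO mouse only *Prss23* was. All 5 were without overlap there, against 15.9% of tested genes in that direction. *Aldh1a3* and *Serpina7* were the other 2 of the 5 genes that edgeR called higher in both models. In the knockout table edgeR called 12 genes higher in all. *Gc* and *Ttr*, which the study also names as raised in both models, were not called there. The study used DESeq2 and reports a larger set of genes shared between the models.

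The diet comparisons share the HFD-fed mice with the choice of genes and are described without a test. From SCD to HFD in wildtype mice the log2 fold changes were 1.25 (SE 0.24) for *Dapl1*, 0.82 (SE 0.37) for *C1qtnf1*, -0.23 (SE 0.27) for *Prss23*, 0.30 (SE 0.38) for *Gm2115* and 0.64 (SE 0.29) for *Gm34225*. *Dapl1* and *Gm34225* were without overlap between diets in wildtype mice, where 8.47% of tested genes were in that direction. In *Pax4* R192H mice the values were 4.19 (SE 0.26) for *Dapl1*, 3.88 (SE 0.38) for *C1qtnf1*, 1.65 (SE 0.27) for *Prss23*, 2.87 (SE 0.38) for *Gm2115* and 1.94 (SE 0.29) for *Gm34225*. All 5 were without overlap between diets in that genotype, where 21.3% of tested genes were in that direction. All 28 acinar markers also had a log2 fold change above 0 from SCD to HFD in that genotype. With the acinar covariate described later, the value there was 1.80 (SE 0.59) for *Gm2115* and between 1.74 and 4.00 for the other genes. Each gene was thus further from its SCD level in HFD-fed *Pax4* R192H than in HFD-fed wildtype mice, and the difference between these differences was not tested.

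**Figure D2:**
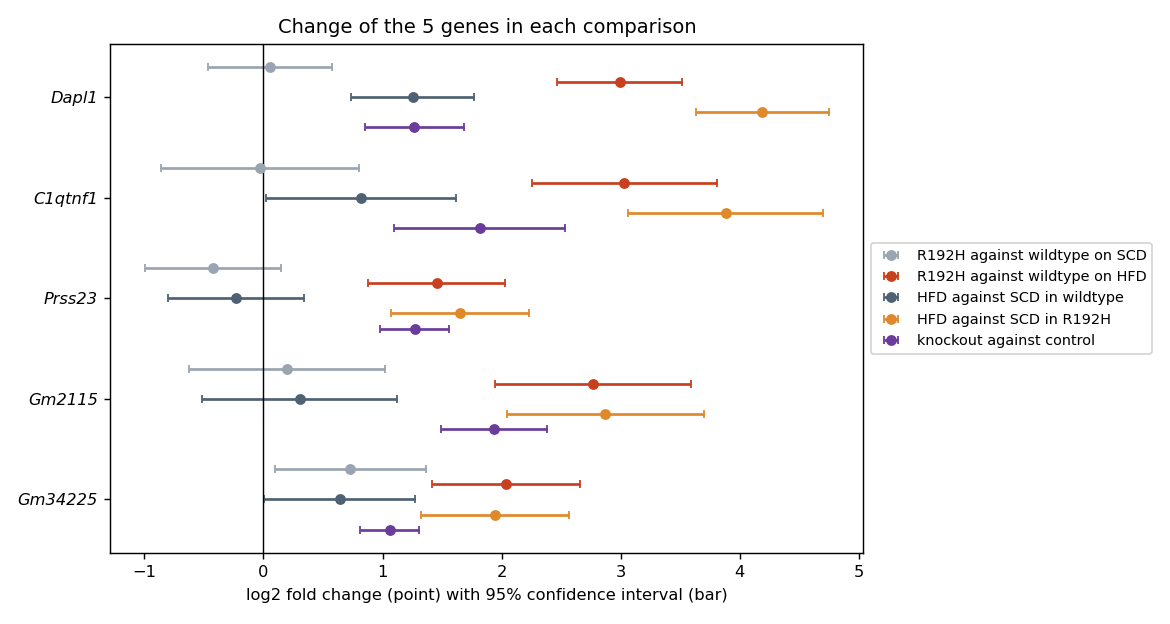
Log2 fold change of the 5 genes (x axis, points) with 95% confidence intervals (bars) in the 5 comparisons, coloured by comparison. The SCD genotype values lie between -0.42 and 0.73 and the HFD genotype values between 1.46 and 3.03.

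**Figure D3:**
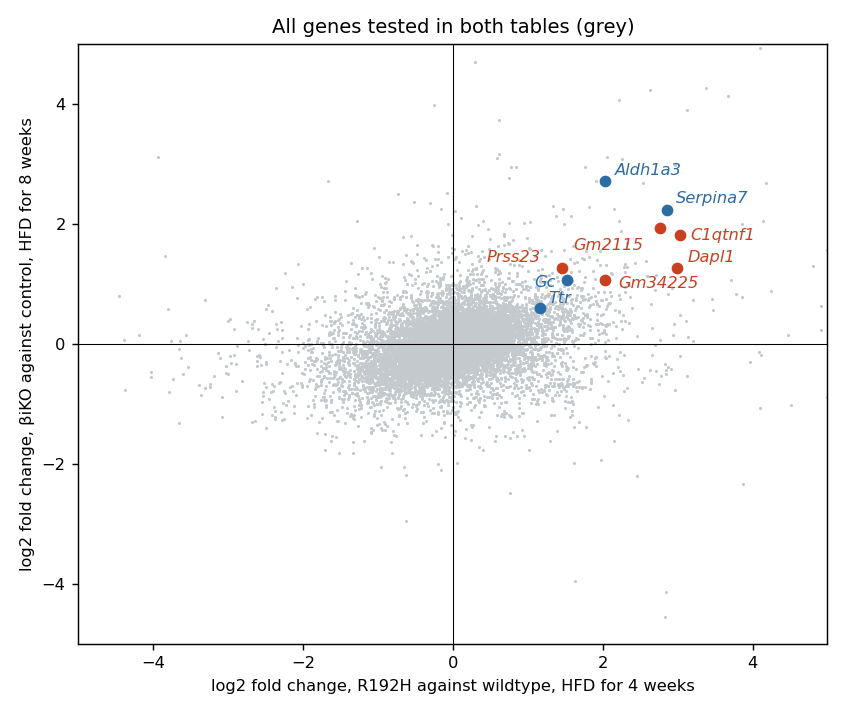
Log2 fold change on HFD in *Pax4* R192H against wildtype (x axis) and in *Pax4* βiKO against control islets (y axis) for 18559 of the 18590 genes tested in both tables (grey), with the 5 genes in red and *Aldh1a3*, *Serpina7*, *Gc* and *Ttr* in blue. All 9 named genes lie in the upper right quadrant, and 31 genes lie outside the axes.

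*Aldh1a3*, *Serpina7*, *Gc* and *Ttr* were picked by the study on these samples and are given beside the 5 genes for scale. On HFD their log2 fold changes between genotypes were 2.03 (SE 0.45), 2.86 (SE 0.32), 1.52 (SE 0.35) and 1.16 (SE 0.19), all below those of *Dapl1* and *C1qtnf1*. In the knockout table they were 2.72 (SE 0.17), 2.23 (SE 0.16), 1.06 (SE 0.14) and 0.59 (SE 0.16). *Aldh1a3*, a retinaldehyde dehydrogenase known from dedifferentiating β cells, had a larger value than any of the 5 genes in the knockout table, as did *Serpina7*, which encodes thyroxine-binding globulin.

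Listed relatives of *C1qtnf1* and *Prss23* were not called between genotypes, nor were ribosome dormancy factors, a list that is not limited to relatives of *Dapl1*. Of the 17 other C1q and TNF-related genes listed, 9 were tested in the knock-in table and 10 in the knockout table, and none was called between genotypes on either diet or in the knockout table, where 2.28% of genes tested on HFD and 0.0893% of those in the knockout table were. The median log2 fold change of the 9 on HFD was 0.29, beside -0.01 over all tested genes. *C1qtnf4*, the most abundant of them, averaged 10.6 ± 1.87 CPM (SD, n = 3) in wildtype mice on HFD, and its log2 fold change was -0.08 (SE 0.21). Of the 15 PRSS and HtrA serine proteases listed, 8 and 9 were tested and none was called between genotypes. On HFD 7 of the 8 had a log2 fold change above 0, with a median of 0.34, and 4 of the 9 did in the knockout table, with a median of -0.18. *Prss53*, the most abundant, had a log2 fold change of 0.03 (SE 0.17) on HFD and of -0.62 (SE 0.10) in the knockout table, where its edgeR adjusted p was 0.113. All 6 ribosome dormancy factors were tested, and none was called between genotypes on either diet or in the knockout table. On HFD their summed level was between 934 and 1060 CPM in wildtype and between 1073 and 1339 CPM in *Pax4* R192H islets, without overlap, and 4 of the 6 had a log2 fold change above 0, with a median of 0.13. From SCD to HFD in *Pax4* R192H mice, *Eef2*, *Dap* and *Eif5a* of these rose and *Eif5a2* fell, with log2 fold changes of 0.62, 0.64, 0.78 and -0.58, and edgeR called 15.7% of all tested genes in that comparison. *C1qtnf12* also rose there, by 0.63.

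Of the 10 tested neighbours on the chromosome, 1 was called between genotypes on HFD, where 2.28% of all tested genes were. The nearest annotated genes of any kind were mostly pseudogenes and non-coding genes with at most 6 counts in any mouse of the knock-in table, as were *Gm11747*, which overlaps *C1qtnf1*, and *Gm45174* and *Gm44928*, which overlap *Gm2115*. *Pkp4* and *Tanc1*, the nearest protein-coding genes to *Dapl1*, had log2 fold changes of -0.39 (SE 0.14) and -0.43 (SE 0.16) between genotypes on HFD, and neither was called. *Cant1* and *Engase*, beside *C1qtnf1*, were at -0.02 (SE 0.12) and 0.33 (SE 0.32). *Fah*, which lies 1628 bases from *Gm2115*, was at 0.36 (SE 0.22) with an edgeR adjusted p of 0.475. The gene called was *Me3*, which encodes a mitochondrial malic enzyme and lies 105205 bases from *Prss23*. On HFD it averaged 5.77 CPM with the R192H allele and 1.77 CPM without it, with a log2 fold change of 1.71 (SE 0.34) and an edgeR adjusted p of 0.0237. Its log2 fold change was 0.91 (SE 0.21) in the knockout table, with an edgeR adjusted p of 0.209. *Fzd4*, on the other side of *Prss23*, was at -0.06 (SE 0.42) on HFD, and *Arnt2* and *Sox6*, beside *Gm2115* and *Gm34225*, were not called either. The protein-coding neighbours were added after the data were seen.

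The genes whose log2 CPM followed a member most closely over the 12 mice of the knock-in table were found by Pearson's r, as a description, since the mice share groups. For *Dapl1* these were *Ssr4* (r = 0.987), *Lmf1* (r = 0.984) and *Slc39a11* (r = 0.984). *Ssr4* encodes a subunit of the translocon-associated complex of the endoplasmic reticulum and *Lmf1* a lipase maturation factor of the same compartment. *Ssr4* was also first for *C1qtnf1* (r = 0.987), before *Nme2* (r = 0.980) and *Rplp0* (r = 0.980). For *Gm2115* they were *Prdx4* (r = 0.978), a peroxiredoxin of the endoplasmic reticulum, *AI506816* (r = 0.977) and *Chil6* (r = 0.973). For *Prss23* they were *Csrp1*, *Sema3c* and *Ldlrad3*, with r between 0.940 and 0.967, and for *Gm34225* they were *Inpp5f*, *5330417C22Rik* and *Gsto2*, with r between 0.952 and 0.974. Among the members, *Dapl1* and *C1qtnf1* had the highest r, 0.974, and it was 0.51 once group means were removed. *Prss23* and *Gm34225* had the lowest, 0.822. The genes named for each member depend on the measure, since Spearman's rho kept at most 1 of 3 and deviations from group means kept 0. No theme among them was tested.

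Acinar RNA moved with genotype on HFD in the knock-in table. The summed level of 28 acinar marker genes was between 18749 and 29214 CPM in wildtype and between 43326 and 113981 CPM in *Pax4* R192H islets on HFD. All 28 had a log2 fold change above 0 and 9 were called higher. In bulk islets, more cells of a type and more RNA per cell cannot be told apart. In the knockout table the same sum was between 27780 and 121976 CPM in control and between 19390 and 96702 CPM in *Pax4* βiKO mice. There 2 of the 28 genes were above 0 and none was called. All 5 members were higher in every *Pax4* βiKO mouse, an increase that the choice of genes had used. With the acinar mean as a covariate, the log2 fold changes between genotypes on HFD were 2.84 (SE 0.37) for *Dapl1*, 3.01 (SE 0.56) for *C1qtnf1*, 1.59 (SE 0.43) for *Prss23*, 1.94 (SE 0.50) for *Gm2115* and 1.87 (SE 0.47) for *Gm34225*. In that fit edgeR called 0 genes, with 1435 at an unadjusted p under 0.05. On HFD the acinar sums did not overlap between genotypes, so this fit cannot tell acinar RNA and genotype apart. The part of acinar RNA in the levels of the 5 genes was not tested. The corresponding values in the knockout table were between 1.07 and 1.99, and of the 3 genes called there only *Gm2115* was called with this covariate. The first HFD-fed *Pax4* R192H mouse had the highest acinar sum, 113981 CPM, and its summed level of the 5 genes, 173 CPM, lay between those of the other two mice, 164 and 191 CPM. That sum is mostly *Dapl1*, at 111 CPM in the first mouse, and says little of the other 4 genes. The summed levels of 3 other marker lists also did not overlap between genotypes on HFD. Duct cell markers summed to between 115 and 141 CPM in wildtype and to between 190 and 301 CPM in *Pax4* R192H islets, and PP cell markers to between 1151 and 1602 CPM and to between 1657 and 3033 CPM. None of the 8 duct and 2 PP cell markers tested was called. The 12 β cell markers summed to between 65084 and 93456 CPM and to between 99091 and 110222 CPM, while 4 of the 12 had a log2 fold change above 0, their median was -0.25, and *Trpm5* and *Slc2a2*, the glucose transporter GLUT2, were called lower and none higher, where 2.28% of all tested genes were called. Of the 7 alpha cell markers, whose sums overlapped, *Slc38a5* was called higher. In *Pax4* βiKO islets the alpha, β, endothelial and stromal sums were above both controls. The alpha, β and stromal sums cleared them by little, the lowest βiKO mouse being at 13991, 131846 and 304.9 CPM and the higher control at 13940.4, 131815 and 304.0 CPM. Of the 12 β cell markers 3 had a log2 fold change above 0, their median was -0.37, *Trpm5* was called lower and none was called higher. Of the alpha cell markers 3 of 7 were above 0 and of the endothelial and stromal markers 9 of 9 and 9 of 11, and none of these was called. The part of these cell types in the levels of the 5 genes was not tested.

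**Figure D4:**
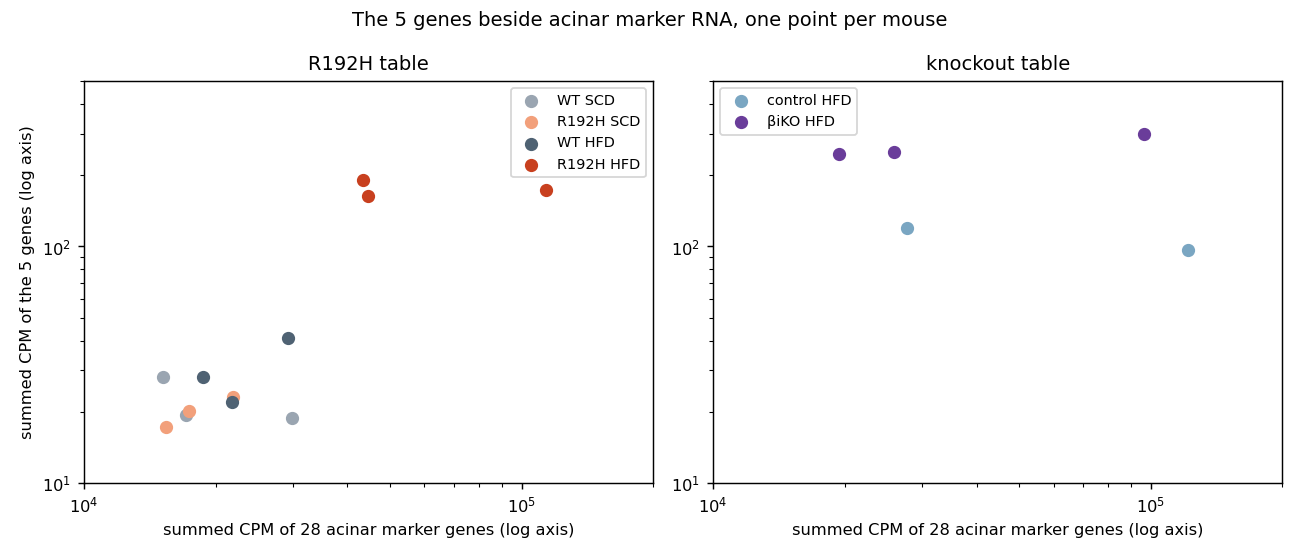
Summed CPM of 28 acinar marker genes (x axis, log) and of the 5 genes (y axis, log), 1 point per mouse, for the knock-in table (left) and the knockout table (right). The HFD-fed *Pax4* R192H mice lie apart on both axes. *Pax4* βiKO and control mice overlap on the x axis and not on the y axis. The choice of genes used the y axis values of both models. *Dapl1* makes up most of the y axis sum in these 3 groups.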

How the data were processed

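Islet libraries of 17 mice in 6 groups were analysed, with groups from the sample labels. The deposited files hold expected counts for each gene. Per the labels and methods, the authors aligned reads with STAR v2.7.1 on mm10, quantified transcripts with RSEM v1.3.3 and collapsed them to genes using tximport. They were rounded here to whole numbers. Each table was normalized on its own by TMM, genes were kept by filterByExpr with a minimum count of 10, and edgeR v4.0.16 in R v4.3.3 was fitted with one coefficient per group. Calls required a Benjamini-Hochberg adjusted p under 0.05 and a log2 fold change beyond 0.5 in either direction. A prior count of 2 was added before taking log2 CPM. DESeq2 v1.42.0 was an alternative. Both tools were checked on simulated counts.

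The 5 genes and the gene lists were chosen with earlier results of these data known. The text names the members, their neighbours and overlapping genes, and 4 genes of the study. Also named are 3 genes per member by Pearson's r among those averaging at least 1 CPM. The called or most abundant genes of 3 family or factor lists are named too. Coordinates are from GENCODE M21, which matched 65.8% and 66.7% of identifiers, and promoters are from RefSeq GRCm38.p6. The motifs were chosen after the results were known. P-values measure the spread between mice, and floors cover counting error only. Replicate numbers were not treated as pairs in the main fit.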

Additional observations from a re-analysis of the deposited data

Results flagged for a closer look

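*Prss23* was below the wildtype mean in all 3 *Pax4* R192H mice on SCD, with a log2 fold change of -0.42, and above it in all 3 on HFD. The opposite directions drew attention to it, the difference between the diets was not tested, and the groups overlapped on SCD. The SCD value rests on the second wildtype mouse, at 18.7 CPM, without which it was -0.02.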

How the results depend on the processing

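The direction of all 5 genes between genotypes on HFD and in the knockout table was the same under every alternative run. Leaving out each mouse gave between 2.81 and 3.28 for *Dapl1* and between 2.82 and 3.42 for *C1qtnf1* on HFD, and in the knockout table between 1.03 and 1.55 for *Dapl1*, the higher value without the second control mouse. *Gm2115* fell to 1.94 on HFD with the acinar covariate. On SCD, leaving out 1 mouse gave between -0.16 and 0.26 for *Dapl1*, between -0.26 and 0.35 for *C1qtnf1*, between -0.14 and 0.36 for *Gm2115*, between -0.61 and -0.02 for *Prss23* (the latter without the second wildtype mouse) and between 0.48 (without the third *Pax4* R192H mouse) and 1.004 for *Gm34225*, so the signs of the first 3 rest on single mice (*Dapl1* -0.03 without the third wildtype mouse, *C1qtnf1* 0.21 without the second *Pax4* R192H mouse). From SCD to HFD in wildtype mice, *Prss23* ranged from -0.47 to 0.17 and *Gm2115* from -0.19 to 0.51. None of the 5 was called on SCD under any of the 14 alternatives. In the knockout table *Prss23* and *Gm2115* were called in 8 of 12 alternatives, *Gm34225* in 7 and *Dapl1* and *C1qtnf1* in 3.

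Counts over all genes moved more. On SCD, 261 genes were called without a filter, 18 by DESeq2 and 1 with only the 2 groups in the fit, against 0. On HFD, 1279 were called without a filter, 919 by DESeq2, 0 with the acinar covariate and between 93 (without the third wildtype mouse on HFD) and 498 without 1 mouse, against 437. For diet in wildtype mice the counts were 924, 544 and 42 under the first 3 of these, 115 with at least 10 counts in every sample, 1 with only the 2 groups and between 5 (without that mouse again) and 125 without 1 mouse, against 71. For diet in *Pax4* R192H mice they were 18 with the acinar covariate and between 1706 (without the second *Pax4* R192H mouse on HFD) and 2248 without 1 mouse, against 2996. In the knockout table they were 697 without a filter, 250 by DESeq2 and between 2 (without the first control) and 28 without 1 mouse, against 18. The cause was not tested.

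With the replicate number as a block, 147 genes were called on HFD, 22 for diet in wildtype mice and 88 in the knockout table. Same-numbered mice correlated between -0.30 and 0.19 in their deviations, which cannot decide pairing in groups of 2 or 3 mice. In the knockout table the first control and the first *Pax4* βiKO mouse had acinar sums of 121976 and 96702 CPM. The others there were between 19390 and 27780 CPM. Whether same-numbered mice were handled together was not tested. The genes named by Pearson's r are not stable, since Spearman's rho kept at most 1 of 3 and deviations from group means kept 0.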
